A study of Homo sapiens with 2 samples.

Results

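Dense groups of distal SOX9 peaks were examined in HT-29 cells, an established human colorectal adenocarcinoma line that expresses endogenous SOX9. The members were selected on the position of called peaks. A peak counted as distal when its summit lay farther than 3 kb from every annotated transcription start site (TSS), neighbouring distal summits at most 12.5 kb apart were joined, and groups of 3 or more peaks were kept. Of 17847 SOX9 peaks, 6706 were distal, and 459 of these (6.84% of distal peaks, 2.57% of all peaks) fell into 136 groups. The groups were then ordered by summed tags, a tag being an aligned read counted within the peak interval. The series held 1 chromatin immunoprecipitation library made with an antibody against SOX9 and 1 library of input DNA from the same cell line. Both libraries entered peak calling with 12320108 tags. With 1 library of each kind there was no replicate, so the values below carry no test, and the intervals given cover counting error only. The files hold no expression measurement, so no gene named here was checked for expression in these cells.

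SOX9 belongs to the SOX family of transcription factors, which bind the minor groove of DNA through an HMG box and recognise a short A/T-rich sequence around CAAAG or CAATG. SOX9 can also bind as a dimer to a pair of such sites that face each other, an arrangement known from cartilage genes. In the intestine SOX9 is expressed in the stem and progenitor cells of the crypt and in Paneth cells, and it is a target of Wnt signalling. Several binding peaks of 1 factor within a short stretch of distal DNA are a common way of finding candidate regulatory regions of cell identity genes.

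The sequences at the strongest summits of the leading groups are shown first, because they show which SOX sites lay under the highest signals. Each line is the hg19 forward strand over 100 bp to either side of the summit, at chr11:2232467-2232667 for the TH and ASCL2 group, chr15:90577884-90578084 for the ZNF710 intron group, chr6:1055293-1055493 for the FOXQ1 side group, chr11:118784925-118785125 for the BCL9L intron group, chr1:1093588-1093788 for the TTLL10 group. Capitals mark SOX half-sites (2 bases A or T followed by CAAAG or CAATG, on either strand) and, where a second half-site faced the first across a spacer of 3 to 5 bases with up to 2 mismatches, that second copy too.
TH and ASCL2 group: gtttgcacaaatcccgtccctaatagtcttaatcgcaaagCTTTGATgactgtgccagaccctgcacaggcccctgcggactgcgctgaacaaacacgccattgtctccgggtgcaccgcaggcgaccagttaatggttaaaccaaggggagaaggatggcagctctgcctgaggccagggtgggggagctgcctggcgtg
ZNF710 intron group: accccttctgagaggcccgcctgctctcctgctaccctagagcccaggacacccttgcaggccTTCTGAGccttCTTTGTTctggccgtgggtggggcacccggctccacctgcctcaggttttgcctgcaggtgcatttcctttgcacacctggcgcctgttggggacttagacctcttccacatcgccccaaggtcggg
FOXQ1 side group: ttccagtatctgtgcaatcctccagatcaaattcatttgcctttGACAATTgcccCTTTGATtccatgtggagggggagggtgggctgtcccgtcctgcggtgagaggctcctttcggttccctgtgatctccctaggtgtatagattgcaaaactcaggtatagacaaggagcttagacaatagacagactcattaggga
BCL9L intron group: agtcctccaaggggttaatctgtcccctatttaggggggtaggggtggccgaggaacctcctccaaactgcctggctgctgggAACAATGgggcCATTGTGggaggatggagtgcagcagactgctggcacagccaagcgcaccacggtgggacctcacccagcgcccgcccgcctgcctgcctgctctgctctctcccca
TTLL10 group: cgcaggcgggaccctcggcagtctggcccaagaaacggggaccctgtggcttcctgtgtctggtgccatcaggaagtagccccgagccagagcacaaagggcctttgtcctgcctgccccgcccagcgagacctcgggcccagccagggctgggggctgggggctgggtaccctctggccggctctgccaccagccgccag

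The BCL9L summit held an exact half-site and a copy with 1 mismatch across 4 bases, centred 8 bp from the summit. The ZNF710 and FOXQ1 side summits each held an exact half-site and a copy with 2 mismatches across 4 bases, centred 28 bp and 48 bp from the summit. The TH and ASCL2 summit held a single exact half-site and no pair of the kind marked here. A copy with up to 2 mismatches faced that half-site at a spacer of 0, outside the spacers marked. Its window also held AACAAAC facing CATTGTC across 4 bases, each with 1 mismatch, a pair without an exact copy. The exact half-sites at the TH and ASCL2 and at the FOXQ1 side summits read CTTTGAT, which also meets the TCF/LEF motif searched below. The TTLL10 summit, with 248 tags and a 51.07-fold enrichment, held no exact half-site and no pair of the kind marked here. The TTLL10 window did hold CACAAAG facing CTTTGTC across GGC at the summit. Each copy had 1 mismatch, so this was also a pair without an exact copy.

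In 4 groups every member held a half-site, and in 4 other groups every member held the AP-1 motif TGANTCA. The windows below come from the group with most tags of each kind and were centred on the match nearest to the summit. The KITLG side group had 3 peaks of 100, 40 and 71 tags, and its windows lie at chr12:89320157-89320217, chr12:89325490-89325550, chr12:89328359-89328419. The IRS1 side group had 4 peaks of 76, 38, 20 and 57 tags, and its windows lie at chr2:227515059-227515119, chr2:227517231-227517291, chr2:227526745-227526805, chr2:227538301-227538361. KITLG encodes the ligand of the KIT receptor, and IRS1 encodes an adaptor of the insulin receptor. They were the nearest protein-coding genes, with TSSs 345.6 kb (KITLG) and 144.9 kb (IRS1) from the strongest summits. No protein-coding TSS lay within 100 kb of either group. Both sets are hg19 forward strand, with the SOX half-site in capitals in the first set and the AP-1 match in the second.
KITLG side group, first peak: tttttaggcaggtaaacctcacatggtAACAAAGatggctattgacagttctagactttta
KITLG side group, middle peak: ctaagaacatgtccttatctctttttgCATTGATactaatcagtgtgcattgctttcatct
KITLG side group, last peak: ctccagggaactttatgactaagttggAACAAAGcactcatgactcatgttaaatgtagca
IRS1 side group, first peak: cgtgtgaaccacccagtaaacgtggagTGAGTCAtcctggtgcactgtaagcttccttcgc
IRS1 side group, next peak: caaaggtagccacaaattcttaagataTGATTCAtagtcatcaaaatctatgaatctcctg
IRS1 side group, one before last peak: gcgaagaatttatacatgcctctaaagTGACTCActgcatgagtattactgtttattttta
IRS1 side group, last peak: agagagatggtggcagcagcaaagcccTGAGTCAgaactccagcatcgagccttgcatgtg

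Among the 136 groups, 99 held 3 peaks, 28 held 4, 5 held 5, 3 held 6 and 1 held 7. The median distance from the first to the last summit of a group was 12.03 kb (quartiles 7.762 and 15.5 kb), and it ran from 1.98 to 50.11 kb. All groups together spanned 1.72 Mb. Neighbouring summits within a group lay a median of 4499 bp apart (quartiles 2539 and 7722 bp, n = 323 spacings). Of these spacings 13 were at most 1 kb, 84 were between 2 and 4 kb, and 45 were between 10 kb and the joining distance. The called intervals themselves lay under 1000 bp apart in 54 cases and under 200 bp apart in 14, so some neighbouring members could be parts of a single broad peak. At the edges of the rule, the widest joined spacing among distal peaks was 12481 bp and the narrowest spacing left apart was 12532 bp. The distal peak nearest to a TSS lay 3001 bp away. Outside the groups, 4979 distal peaks stood alone and 634 pairs were formed.

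Groups were found on every autosome except chromosome 16, where 143 distal peaks formed none, and 1 group lay on the X chromosome. Chromosome 17 had the highest share, with 31 of 232 distal peaks in groups (13.4%). Chromosome 2 had the most groups, with 14. Of the 459 members, 208 (45.3%, 95% Wilson interval 40.8 to 49.9) had their summit in an intron of a protein-coding gene, 199 (43.4%, 38.9 to 47.9) were intergenic, 48 (10.5%, 7.98 to 13.6) lay in a long non-coding RNA gene only, and 4 (0.871%, 0.339 to 2.22) lay in an exon of a protein-coding gene. Among the 6247 other distal peaks the intron share was 42.4% and the intergenic share 41.7%, and the intervals of both differences included 0. Exonic summits were rarer among members by 2.25 percentage points (Newcombe 95% interval of the difference, members minus others, -2.95 to -0.843). A protein-coding gene was overlapped by 65 groups and by none of the other 71. For 29 groups no protein-coding TSS lay within 100 kb.

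Summed tags per group had a median of 177 (quartiles 121.5 and 239) and a lowest value of 43. These values rank the groups and are given as a description. The first 20 groups held 28.6% of the members' 25830 tags. In the median group the strongest peak took 42.9% of the tags, and in 34 groups it took 50% or more.

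**Figure D1:**
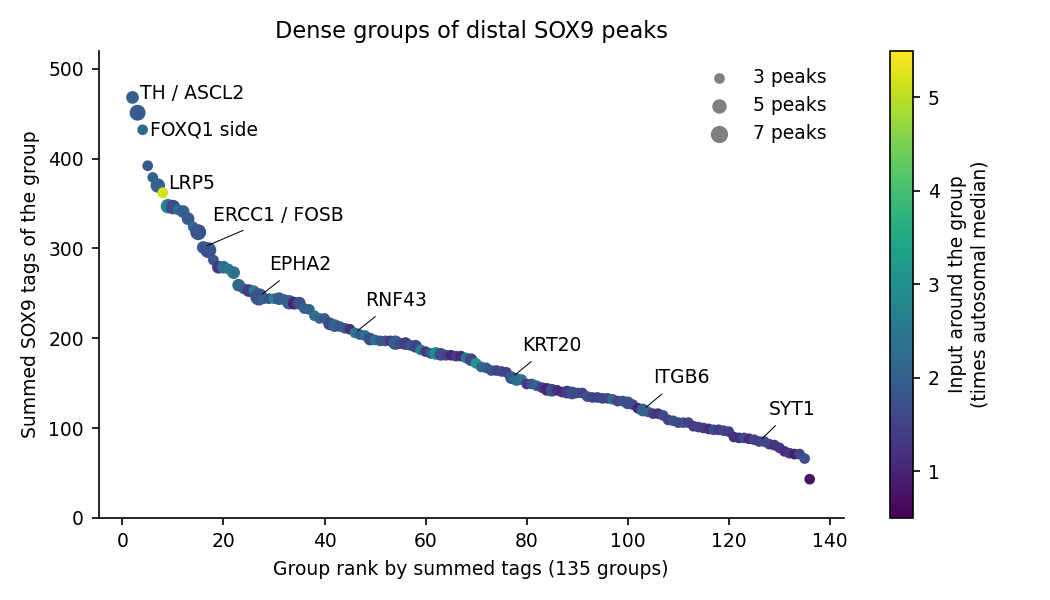
Summed SOX9 tags of each group shown (vertical axis) against its rank (horizontal axis), 1 point per group, with the point size giving the number of peaks and the colour giving the input signal around the group as a multiple of the autosomal median. The plot starts at the second rank, where the group between TH and ASCL2 stood at 468 tags, and the values fell gradually to 43. The lightest point is the NSMCE2 group, at 5.16 times the autosomal median.

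With 468 summed tags, a group lay between TH, which encodes tyrosine hydroxylase, and ASCL2, a Wnt target that encodes a transcription factor of intestinal stem cells. Its 4 peaks, spanning chr11:2223808-2232567, held 67, 62, 77 and 262 tags. The highest SOX9 signal (extended tags per 32-nt bin) was 32, 21, 25 and 152, and the highest input signal 4, 5, 9 and 8. Of these peaks, the one with 77 tags was the least enriched over local background, at 5.71-fold, and the one with 262 tags the most, at 48.98-fold. The nearest protein-coding TSS to the strongest summit was that of TH, 39.52 kb away, and the ASCL2 TSS lay 59.25 kb from the group. Both promoters carried a SOX9 peak, of 47 tags at TH and 53 at ASCL2. The group had 8 protein-coding genes with a TSS within 100 kb. TH was named as the nearest of them and ASCL2 as a list gene.

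Of the first 20 groups, 3 more lay in genes with a role in Wnt signalling that were on no gene list, and RNF43, the second gene of the Wnt list of 24 genes with a group within 100 kb, ranked at place 46. LRP5, which encodes a Wnt co-receptor, held 5 intronic peaks of 149, 60, 62, 56 and 43 tags at chr11:68095973-68122277, 4 of them with a half-site. BCL9L, which encodes a cofactor of beta-catenin, held 3 peaks of 179, 78 and 135 tags at chr11:118785025-118790571. The strongest BCL9L summit lay 3.023 kb from the nearest TSS of the gene, just beyond the distal limit of 3 kb. ROR1, which encodes a receptor for Wnt ligands, held 4 intronic peaks of 50, 137, 107 and 39 tags, with the strongest summit 194.3 kb from its nearest TSS. RNF43, which encodes a ubiquitin ligase that removes Wnt receptors from the cell surface, had 3 peaks of 79, 76 and 51 tags at chr17:56465382-56472143. The last 2 of the RNF43 peaks each held a paired SOX site with a spacer of 4. LRP5, BCL9L and ROR1 were named because they overlapped 1 of the first 20 groups, and the role they share was picked out after their names were seen.

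Groups with FOXQ1, ELF3, ZNF710 or TOB1 as the overlapped or nearest protein-coding gene differed in how their tags were divided. A group of 3 peaks with 112, 35 and 285 tags at chr6:1039420-1055393 lay within a long non-coding RNA gene, with the strongest summit 256.9 kb from FOXQ1, the nearest protein-coding gene, which encodes a forkhead factor. ELF3, which encodes an epithelial ETS factor, had 5 peaks of 116, 34, 44, 63 and 89 tags downstream of the gene, and the strongest took only 33.5% of them. The peak of 116 tags was broad and low, with a highest SOX9 signal of 17 over 1758 bp against 44 for the peak of 63 tags. ZNF710, which encodes a zinc finger protein, held 6 intronic peaks of 185, 53, 64, 30, 100 and 19 tags, 4 of them with a half-site. A group of 6 peaks with 28, 130, 22, 48, 50 and 40 tags lay upstream of TOB1, which encodes an antiproliferative protein, with the strongest summit 25.75 kb from the TSS, and none of its peaks held a half-site or an AP-1 match.

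Among the genes of growth factor signalling and immediate early response, the ERCC1 group had 4 peaks of 78, 50, 29 and 144 tags. It lay 12.1 kb from the TSS of FOSB, which encodes a subunit of AP-1, and 2 of its peaks held the AP-1 motif. ERCC1 encodes a subunit of a DNA repair endonuclease. The group with most peaks lay at EPHA2, which encodes an ephrin receptor. Its 7 peaks held 29, 36, 36, 44, 51, 28 and 22 tags over 50.11 kb, and no peak dominated, since the strongest took 20.7% of the tags, the lowest share of any group. Near FGF3, a fibroblast growth factor gene, 4 peaks of 51, 78, 86 and 64 tags lay upstream of the gene, with the strongest summit 73.89 kb from the TSS.

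The remaining groups of the first 20 were as varied. Those overlapping a gene lay at BCL2L1, which encodes an inhibitor of apoptosis, with 5 peaks and 347 tags, at NSMCE2, which encodes a SUMO ligase, with 3 peaks and 362 tags, at SSPN with 3 and 343, at DLGAP1 with 4 and 341, and at CDIN1 with 4 and 279. The groups that overlapped none lay nearest to TTLL10 with 3 peaks and 379 tags, DNAJB8 with 3 and 324, ASAP2 with 6 and 298, and ANKRD55 with 3 and 287. The BCL2L1 group was the only 1 of the first 20 with the NF-Y core CCAAT at 4 of its peaks, and it was also the group within 88.75 kb of ID1, which encodes an inhibitor of bHLH factors. The NSMCE2 group had the highest surrounding input of all 136 groups, 5.16 times the autosomal median, and its strongest peak reached a SOX9 signal of 47 over an input signal of 13.

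**Figure D2:**
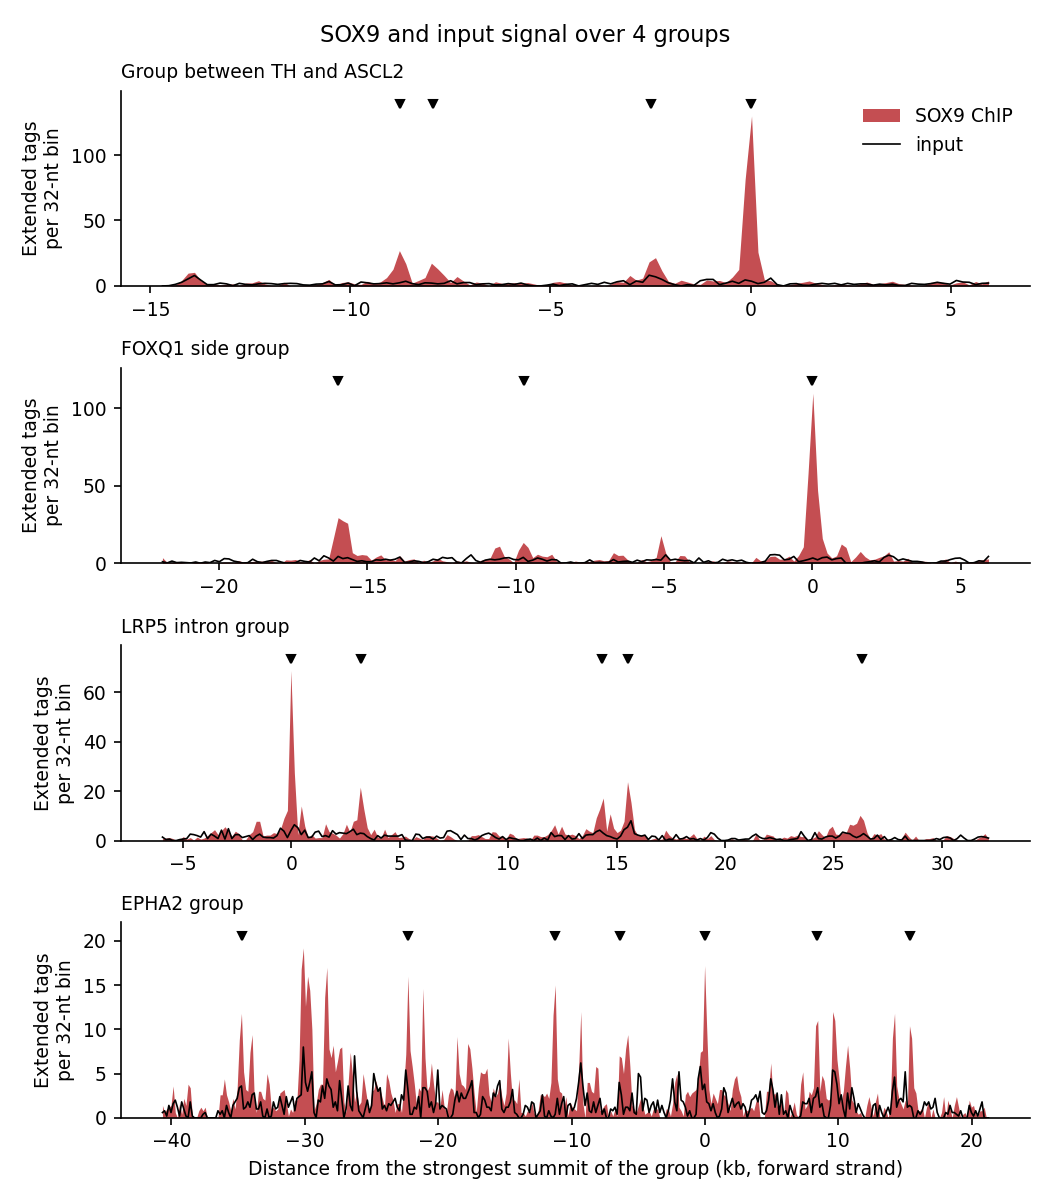
SOX9 signal (filled) and input signal (line), in extended tags per 32-nt bin averaged over 5 bins, over 4 groups against distance from the strongest summit in kb. Triangles mark member summits, and in the EPHA2 panel the unmarked maxima near -30 kb include peaks close to a TSS, which the rule leaves out. The group between TH and ASCL2 and the FOXQ1 side group each had 1 dominant summit, whereas the EPHA2 group had 7 low ones.

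Of 175 genes on 11 lists, 12 had a group within 100 kb of a TSS, beside 285 of 20149 protein-coding genes (1.41%). The lists were small, with 8 to 24 genes each, so a single gene moves a share by several points. They were chosen with earlier results of these data known, so their shares are a description only. The 8 lists of gut, signalling and known SOX9 target genes gave 11 of 148 genes (7.43%, 4.2 to 12.8), and the 3 lists of neuron, skeletal muscle and blood cell genes gave 1 of 27 (3.7%, 0.657 to 18.3), with overlapping intervals. The Wnt and intestinal stem cell list gave ASCL2 and RNF43, and the gut transcription factor list included ELF3. The list of EGF receptor, ligand and ERK feedback genes gave EPHA2 and SPRY4, an inhibitor of receptor tyrosine kinase signalling, whose group of 3 peaks and 100 tags lay 91.9 kb away. The TGF-beta and BMP list gave ID1 and SMAD6, an inhibitory SMAD, the latter with an intragenic group of 94, 37 and 47 tags. The AP-1 list gave FOSB. From the epithelial list, KRT20, a keratin of differentiated enterocytes, had 4 peaks of 42, 54, 34 and 26 tags at a distance of 16.99 kb, and ITGB6, an epithelial integrin subunit, had 4 peaks of 34, 41, 21 and 24 tags at 14.38 kb. SYT1, a synaptic vesicle gene, was the neuron gene, with 3 peaks and 85 tags. No gene of the mucin and secretory list (17 genes) or of the cartilage SOX9 target list (13 genes) had a group.

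SOX9 peaks at gene starts accompanied many of the groups. A SOX9 summit lay within 1 kb of a TSS in 44.8% of all protein-coding genes. The share was 158 of 285 (55.4%, 49.6 to 61.1) for genes within 100 kb of a group and 82 of 132 (62.1%, 53.6 to 69.9) for genes nearest to the strongest summit of a group. For the 3502 genes nearest only to other distal peaks it was 53.5% (51.9 to 55.2), so the genes nearest to groups had the higher share, with overlapping intervals. Exceptions among the named genes included EPHA2, KRT20, ITGB6, LRP5, ZNF710 and SYT1, which had no SOX9 summit within 1 kb of a TSS.

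Between the called peaks of a group the SOX9 signal was low. The mean was 1.59 extended tags per bin in the median group (quartiles 1.3 and 2.03), and the highest SOX9 signal of the strongest peak was 18.5 times the mean between the peaks in the median group. Stretches of the same length beside the groups had a median of 1.29. The input was also higher between the peaks, at 1.39 against 1.13 beside the groups. SOX9 over input was accordingly 1.16 (quartiles 1.02 and 1.34) between the peaks and 1.18 (1.05 and 1.32) beside the groups, and it was higher between the peaks in 60 of 136 groups. SOX9 over input over the whole genome was 1, and both medians lay above it. Called peaks outside the group were not left out of the stretches beside the groups. Nor were they left out of the gaps in the 4 groups that held other called peaks inside. The ratios therefore do not compare peak-free DNA on both sides.

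SOX motifs were as frequent at the members as at other distal peaks within counting error. A half-site was present within 100 bp of the summit in 156 of 459 members (34%, 29.8 to 38.4) and 36.1% of other distal peaks, a difference of -2.13 points (-6.48 to 2.48). In windows of the same length 1 kb to either side of the members' summits the share was 21.6% (19.0 to 24.3). The paired SOX site, a half-site facing a second copy across 4 bases with up to 2 mismatches in 1 copy, was present in 33 members (7.19%, 5.16 to 9.92), in 7.09% of other distal peaks and in 1.85% of the members' flanks. Half-sites in the opposite order, facing away from each other, were present in 2.83% of members. When the spacer was varied from 0 to 10 bases, a comparison added after the values were seen, the member share was highest at 4 bases and lay between 1.74% and 3.92% at the others. At other distal peaks the spacers of 3 and 5 bases also stood out, each at 5.03%, against 3.05% and 2.61% at members.

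A facing pair with a spacer of 3, 4 or 5 bases was present at 55 of 459 members (12%, 9.32 to 15.3), 14.4% (13.5 to 15.3) of other distal peaks and 3.81% (2.75 to 5.26) of the members' flanks. The planned spacer was 4 bases only, and this pooled range was added later. At members, spacers of 0 (3.92%) and 8 bases (3.7%) had higher shares than 3 (3.05%) and 5 (2.61%). Among the members it was present at 22 of the 136 strongest peaks (16.2%, 10.9 to 23.3), at 33 of the 323 other members (10.2%, 7.37 to 14) and at 6 of the 20 strongest peaks of the first 20 groups (30%, 14.5 to 51.9), with overlapping intervals. They included the summits at ZNF710, FOXQ1, BCL9L, LRP5 and DLGAP1. Members with such a pair had a median of 58 tags (quartiles 37 and 94) and members without it 43 (31 and 63). Among other distal peaks the medians were 36 and 35. Half-sites with or without a facing copy followed the same order, again with overlapping intervals. They were present at 39.7% (31.9 to 48.1) of the strongest peaks and 31.6% (26.8 to 36.8) of the other members. These counts include the peaks with a pair.

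The AP-1 motif, bound by FOS and JUN dimers, was present in 113 members (24.6%, 20.9 to 28.8) and 27.4% of other distal peaks, a difference of -2.82 points (-6.7 to 1.46), against 7.41% in the members' flanks. Half-site and AP-1 were found at the same member in 36 cases (7.84%), whereas 120 members held a half-site alone, 77 held AP-1 alone and 226 (49.2%) held neither. Members with a half-site alone had a median of 51 tags, those with AP-1 alone 40, and those with neither 44. A half-site was present in at least 1 member of 98 groups and in 2 or more members of 44. AP-1 was present in 80 groups and in 2 or more members of 26. Both motifs occurred in 59 groups, of which 32 held them at the same peak, 60 groups held only 1 of them, and 17 groups held neither.

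Of the other motifs searched on both strands, most were more frequent at the summits than in the flanks and close to the share at other distal peaks. The TCF/LEF motif (CTTTGA followed by A or T), which the half-site definition contains in full, was present in 12.4% of members, 12.3% of other distal peaks and 7.08% of flanks. The motif of GATA factors (AGATAA) was present in 17.4%, CDX (TTTATNG) in 14.4%, TEAD (GGAATG) in 16.1%, RUNX (TGTGGTT) in 10.2%, KLF/SP (GGGCGG, with CCACCC searched as an alternative) in 31.6%, ETS (CCGGAA) in 6.1% and HNF4 (CAAAGTCCA) in 1.31% of members. For each of these the interval of the difference from other distal peaks included 0. The NF-Y core CCAAT was present in 20.9% of members against 25.9% of their flanks. Only for the forkhead motif TGTTTNC did the interval of the difference exclude 0, with 20.9% of members (17.4 to 24.9) against 26.6% of other distal peaks, a difference of -5.67 points (-9.32 to -1.57). It was 1 of 14 motifs compared. Members were also richer in G and C, and within quartiles of GC content the forkhead difference was -10.9, -5.43, -0.529 and -3.22 points from the lowest to the highest quartile, with an interval that excluded 0 in the lowest quartile only. Searched over whole peak intervals the difference was 0.295 points (-4.43 to 4.91), and the interval also included 0 with a joining distance of 5 kb (-12.8 to 0.0417) and in the highest quartile of surrounding input (-8.55 to 3.27).

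Members had more tags than other distal peaks, with a median of 45 (quartiles 31 and 68) against 35 (25 and 52), but slightly lower fold enrichment over local background, with medians of 10.07 and 10.93. The input library moved with group membership. Input within 25 kb of the summit, with all called peaks left out, had a median of 1.756 times the autosomal median at members and 1.426 times at other distal peaks. It rose with the number of peaks joined, from 1.387 for peaks alone to 1.595 for pairs, 1.669 for groups of 3 and 1.854 for larger groups. Of distal peaks in the lowest quartile of surrounding input 1.73% (1.21 to 2.47) were members, and of those in the highest quartile 13.4% (11.8 to 15.1). Within the highest quartile members and other distal peaks had the same median, 52 tags. The medians were 41 and 38 in the third quartile, 33 and 32 in the second, and 33 and 25 in the lowest. The difference between members and other distal peaks was thus smaller than the pooled one in every quartile. The part of the surrounding input in group membership was not tested.

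**Figure D3:**
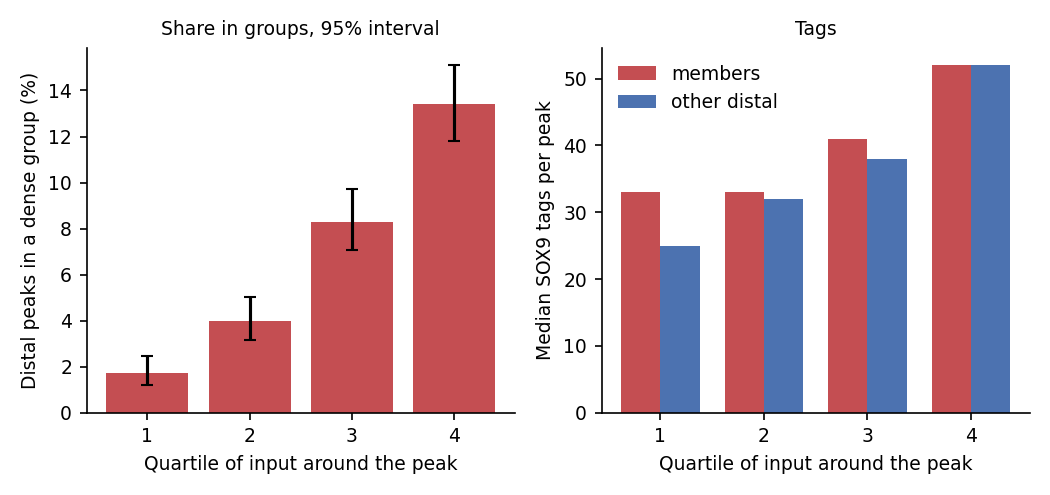
Left, the percent of distal peaks that belong to a dense group, by quartile of the input signal within 25 kb, with 95% Wilson intervals as bars. Right, median SOX9 tags of members and other distal peaks in the same quartiles. The share in groups rises from 1.73% to 13.4%, and the medians of members and other distal peaks meet at 52 tags in the highest quartile.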

How the data were processed

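Per the file headers and the study's methods, the authors aligned 50-nt reads to hg19 with BWA, kept uniquely aligned reads, reduced the input at random to the 12320108 tags of the ChIP and called peaks with MACS against input (p cut-off 1.00e-07). The deposited peak table gives tag counts per interval, a score (−10 times log10 of p), the fold enrichment ratio over local background and the FDR in percent. The deposited signal maps give the authors' coverage signal, tags extended to 150 bp and counted in 32-nt bins. MACS kept 12319746 unique tags for SOX9 and 12320062 for input.

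TSSs of all transcripts were taken from GENCODE release 44 lifted to GRCh37, and sequences from the GRCh37 genome (hg19 coordinates). Motifs were searched within 100 bp of the summit. Local input was the mean per bin outside called peaks, divided by the autosomal median of 50-kb windows (0.643). Shares carry Wilson 95% intervals and differences Newcombe intervals, which treat peaks as independent although peaks of 1 group share a locus. Grouping and motif scripts were tested on simulated data. Genes were named by rule: those overlapped by or nearest to the first 20 groups, and list genes within 100 kb of a group. KITLG and IRS1 were named as the nearest genes of groups printed for their motifs. The members and lists were chosen with earlier results of these data known. Python 3, NumPy, pandas and pysam were used. The group with most tags is not reported here.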

Additional observations from a re-analysis of the deposited data

How the results depend on the processing

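No paired analysis was possible because each group had 1 library. Counts depended on the joining rule. A joining distance of 5 kb gave 146 members in 47 groups with 392 tags in the first, at BCL9L, and 20 kb gave 776 in 223. TSSs of protein-coding genes only gave 757 members in 218 groups, with 1225 tags in a first group that is not a group under the full TSS set. Scores of 100 or more gave 180 members in 56 groups, and a smallest group of 4 gave 162 in 37 with 468 tags in the first. Of the first 20 groups, 12 stayed when ranked by number of peaks, 6 by tags per kb, 10 by SOX9 minus input signal and 14 by tags over local input. A distal limit of 5 kb and interval midpoints kept member and group numbers within 1.5 times and the same group first. So did merging intervals under 1 kb apart, which was added after seeing the data. Leaving out peaks with an input signal of 20 or more could change no member, because the highest member value was 14. Leaving out groups with a TSS inside was also added after seeing the data. It removed 14 of 136 groups and not the first, so this outcome was fixed too.

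Motif shares followed the window. For half-site, paired SOX, AP-1 and forkhead, 50-bp windows gave 22.4%, 4.36%, 16.1% and 10.7% of members and 22.5%, 4.8%, 17.5% and 15.2% of other distal peaks, and whole intervals gave 66.4%, 11.5%, 46.6% and 57.3% against 66.2%, 13.5%, 43.7% and 57%. Over whole intervals the AP-1 difference was 2.91 points, and the forkhead difference turned to 0.295 (-4.43 to 4.91); members' intervals are longer, and the cause was not tested. The forkhead interval also included 0 with a joining distance of 5 kb (-12.8 to 0.0417) and in the highest quartile of input (-8.55 to 3.27), the latter added after seeing the data. With scores of 100 or more the half-site share was 40.6% against 38.3% and the paired SOX share 10% against 8.62%. Among other distal peaks the paired SOX share was 7.88% with no neighbour within 50 kb and 5.78% in the highest input quartile.

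All protein-coding genes near a group made up 0.764% within 50 kb, 0.427% by overlap or within 10 kb and 2.38% with joining at 20 kb. The first 8 lists then held 7, 5 and 17 genes, and all lists 6 by overlap or within 10 kb. Signals between and beside the peaks stayed within the main quartiles under all 3 alternatives tried. With 12320108 tags in 1 library, peaks near the calling limit, and so groups near the smallest size, depend on depth, which was not varied.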

Other observations

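Genes of a few families recurred as the protein-coding gene nearest to the strongest summit of groups below the first 20. For ephrins and their receptors these were EFNB2 (232 tags), EFNB1 (133) and EPHA7 (116). For Krueppel-like factors they were KLF5 (244), KLF6 (194) and KLF14 (183). For immediate early and ERK feedback genes they were IER2 (210) and DUSP6 (192). The groups of KLF14 and of IRS1, the latter with 191 tags, held 4 peaks and the others 3. The TSSs lay from 5.003 kb (EFNB1) to 419.6 kb (EFNB2) from these summits, the families were picked after the values were seen, and nearness says nothing of regulation. No share over all genes was computed for these families, so their recurrence is a description only.

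Several pairs of groups lay close together without being joined. The EEFSEC group (3 peaks of 28, 44 and 181 tags) and the DNAJB8 group (3 peaks of 193, 68 and 63 tags) both lay within 100 kb of a TSS of GATA2, which encodes a zinc finger transcription factor. In each the strongest peak faced the other group, and neither held a half-site within 100 bp of a summit. BMP4, which encodes a secreted growth factor, was the nearest protein-coding gene of groups of 3 and 4 peaks with 181 and 140 tags, whose strongest summits lay 143.3 and 211 kb from its TSS. These genes were singled out after their values were seen, and no comparison was made.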
